A study of Arabidopsis thaliana with 4 samples.

Results

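A small and mixed set of nuclear genes had more RNA in *mettl4-1* than in Col-0 seedlings of *Arabidopsis thaliana*. The set holds 17 of the 20373 nuclear genes that had 20 or more counts in both *mettl4-1* libraries, and of 32833 genes listed in all. A gene was taken when the lower of its *mettl4-1* values was at least 1.5 times the higher of its Col-0 values, both in CPM, which are counts scaled to a library of 1000000 nuclear counts. These limits were passed by 32 genes, or 0.157% of those past the count minimum, and 15 of them were left out by their identifiers and are not described here. The 17 genes were thus chosen by the measured difference itself, and their fold changes are given as a description without a test.

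RNA was sequenced from *mettl4-1* and Col-0, with 2 libraries for each. *mettl4-1* carries a T-DNA insertion in the first exon of *METTL4* (AT1G19340), which encodes a methyltransferase of the MT-A70 family, and is 1 line in the Col background, although the deposited table of its replicate 2 carries the name of another allele and was taken as *mettl4-1* from its sample labels, while Col-0 is the wild-type accession. All libraries came from seedlings of 14 days, grown with a light period of 16 h at 22 °C by the labels (the study's methods give a slightly lower temperature), and neither a treatment nor a sort of cells is named. The labels name the libraries as replicates, and nothing says whether they came from separate cultures, so the spread between them may be technical.

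METTL4 and its relatives add a methyl group to the N6 position of adenosine, and a known substrate of METTL4 is the U2 small nuclear RNA, a component of the spliceosome. By annotation the 17 genes hold transcripts of the ribosomal DNA, a gene inside a duplication, single members of large protein families (F-box, NPH3, serpin, cytochrome P450) and short transcripts that lie opposite other genes. Short reads of duplicated or overlapping genes are hard to assign to 1 place and 1 strand of the genome.

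*METTL4* itself had 35 and 46 counts in *mettl4-1* and 355 and 413 counts in Col-0. That was 0.803 ± 0.156 CPM in *mettl4-1* and 6.42 ± 0.164 CPM in Col-0 (SD, n = 2 each). The log2 fold change was -2.99 (SE 0.14, edgeR's quasi-likelihood test, adjusted p = 8.6e-07). Both *mettl4-1* libraries thus held little *METTL4* RNA, which cannot tell *mettl4-1* from another mutant allele of the gene. The libraries held 50862075 to 66003824 counts, at which 3 counts equal 0.0458 to 0.0596 CPM. The *mettl4-1* libraries held more organelle counts (2.68% and 1.03%) than the Col-0 libraries (0.693% and 0.713%). They also held more counts of 18S ribosomal RNA (3.62% and 1.25% in *mettl4-1*, 0.493% and 0.369% in Col-0), and replicate 1 of *mettl4-1* stood apart in both. Over the whole transcriptome, 203 of 21673 genes tested (0.937%) were called higher in *mettl4-1* by edgeR at 1.5-fold and an unadjusted p under 0.05, and 148 (0.683%) were called lower. With a Benjamini-Hochberg adjusted p under 0.05 in its place, 68 (0.314%) were called higher and 70 lower.

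All 17 genes passed the filter of the edgeR fit and all 17 were called higher at the unadjusted limit, 7 of them at the adjusted one. Because the same contrast had chosen them, nothing is read from these counts. Their median fold of the mean CPM was 1.88, with a lowest value of 1.64 and a highest of 11.9, and 6 of the 17 exceeded 2-fold. The gap, which is the ratio of the lower *mettl4-1* to the higher Col-0 value, exceeded 2 in 4 genes and lay between 1.53 and 1.74 in the other 13. Most levels were low, with a median of 0.813 CPM in *mettl4-1* and 0.352 CPM in Col-0.

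**Figure D1:**
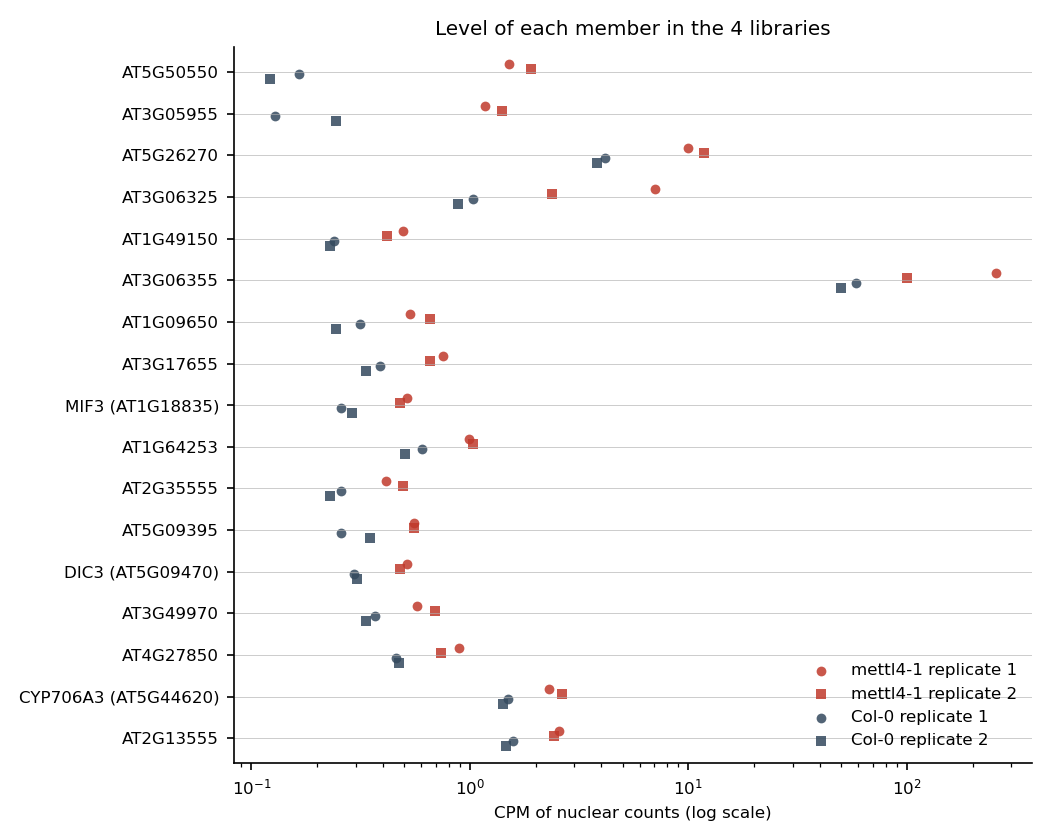
CPM of nuclear counts (log axis) of the 17 genes in *mettl4-1* replicates 1 and 2 (red) and Col-0 replicates 1 and 2 (dark blue), ordered from the largest to the smallest gap. The red and blue points overlap in no row, as the choice of the genes requires, and the gap narrows from 9.08 in AT5G50550 to 1.53 in AT2G13555.

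The share of genes past the limit depended on depth. Among genes whose lower *mettl4-1* count was 20 to below 50, 1.21% had a gap of 1.5 or more, including 9 of the 17. Between 50 and below 200 counts the share was 0.238%, with 6 of the 17, and from 200 counts upward it was 0.0559%, with 2 of the 17. A 95% counting interval for the fold of the means, computed from summed counts and covering counting error only, lay wholly above 1.5 for 5 genes and reached below 1.5 for 12. It describes the depth and is no test, since it rests on the counts that chose the genes and leaves out the spread between replicates. The same limits turned round, with both Col-0 values at least 1.5 times both *mettl4-1* values, were met by 70 of 20544 genes (0.341%). Of these 44 had a gap over 2. No identifiers were left out there, so the like number is the 32 genes (0.157%) that passed before the exclusion, not the 17.

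**Figure D2:**
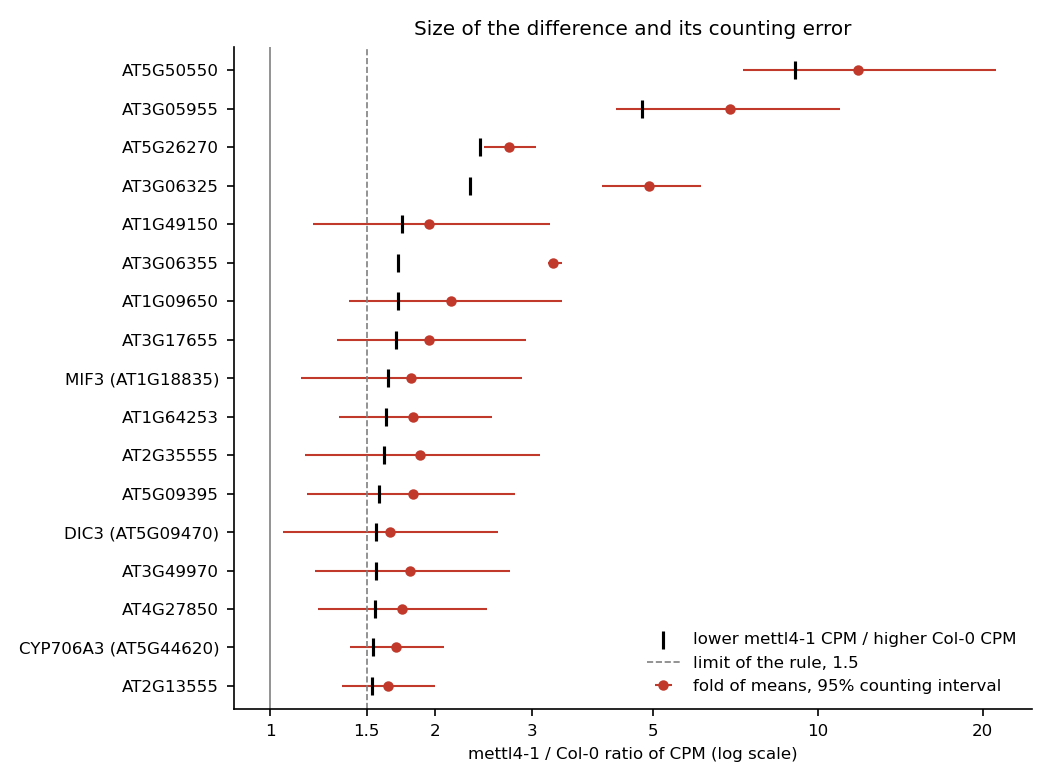
Ratio of *mettl4-1* to Col-0 CPM (log axis) for the 17 genes, as the fold of the means with its 95% counting interval (red) and as the gap (black tick), beside the limit of 1.5 (dashed). Intervals start above 1.5 in 5 genes (AT5G50550, AT3G05955, AT5G26270, AT3G06325 and AT3G06355), and the lowest start is 1.05 in *DIC3*.

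The largest gap belonged to AT5G50550, which encodes a protein of WD40 repeats, a fold that usually serves as a platform for binding other proteins. It had 76 and 96 counts in *mettl4-1*, against 9 and 8 counts in Col-0. Both *mettl4-1* libraries lay far above both Col-0 libraries, with 1.71 ± 0.285 CPM in *mettl4-1* and 0.144 ± 0.0308 CPM in Col-0 (SD, n = 2 each). The fold of the means was 11.9 (counting interval 7.29 to 21.1), and it stayed between 10.3 and 14.0 when any 1 library was left out.

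AT5G50550 lies on chromosome 5 at 20576733 to 20579103 (TAIR10.1, plus strand), inside a block of 25719 bases that occurs again without a single difference. The left copy spans 20571766 to 20597484 and the right copy 20605108 to 20630826. The right-hand edge of the block in both copies is shown here because it marks where the identity stops. Lower case letters are the last bases of the block, the same in both copies, and capitals are the bases past its end, where the copies differ:
left copy: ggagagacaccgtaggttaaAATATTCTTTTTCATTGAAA
right copy: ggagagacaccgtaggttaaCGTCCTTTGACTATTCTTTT
A read that falls wholly inside the block matches both places equally well. The authors kept reads of high mapping quality, and what share of the block's reads passed is not given. The level of a gene in the block may thus not stand for its expression. The copy of AT5G50550 on the right, AT5G50650, was listed with 0 counts in all 4 libraries.

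Other genes of the block varied between libraries of the same genotype. *SAE1B* (AT5G50580), a subunit of the enzyme that activates the small protein modifier SUMO, had 48 and 207 counts in *mettl4-1*, against 285 and 14 counts in Col-0. Its CPM thus differed 4.33-fold between the *mettl4-1* libraries and 24.6-fold between the Col-0 libraries. AT5G50530, next to AT5G50550, had 30 and 282 counts in *mettl4-1*, against 22 and 24 counts in Col-0, a difference carried by replicate 2 of *mettl4-1*. *HSD4* (AT5G50590), a hydroxysteroid dehydrogenase gene, had 1 and 0 counts in *mettl4-1*, against 30 and 18 counts in Col-0. Summed over the 11 genes of the left copy, the counts were 207 and 609 in *mettl4-1*, against 397 and 108 in Col-0, and these groups overlapped. The replicates of AT5G50550 lay 1.27-fold apart in *mettl4-1* and 1.36-fold apart in Col-0, and those of *SPL13A* (AT5G50570), a transcription factor gene of the block, 1.79-fold in *mettl4-1* (18 and 10 counts), with 14 and 15 counts in Col-0. Whether the assignment of reads to the block has a part in its difference was not tested.

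**Figure D3:**
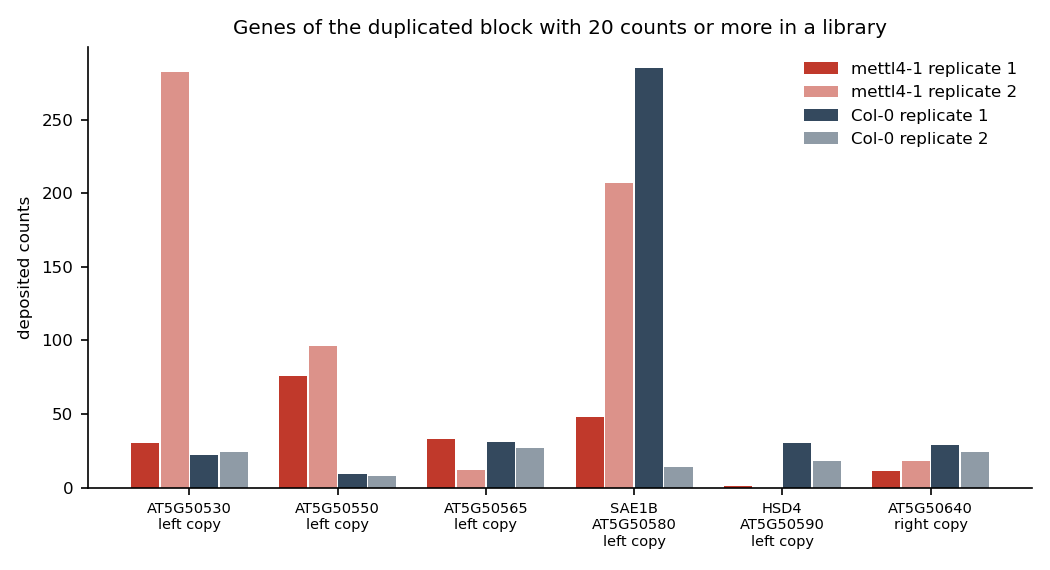
Deposited counts of the 6 genes of the duplicated block with 20 or more counts in any library, for *mettl4-1* replicates 1 and 2 (red, light red) and Col-0 replicates 1 and 2 (dark blue, light blue). The bars of AT5G50550 separate the genotypes, 76 and 96 in *mettl4-1* against 9 and 8 in Col-0, while those of *SAE1B* differ most between the Col-0 libraries, 285 and 14.

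The second largest gap was that of AT3G05955, a long non-coding RNA of 1 exon at 11586005 to 11586548 on the minus strand of chromosome 3. It had 59 and 71 counts in *mettl4-1*, against 7 and 16 counts in Col-0. The *mettl4-1* values of 1.17 and 1.41 CPM exceeded the Col-0 values of 0.129 and 0.244 CPM, with a fold of the means of 6.91 (counting interval 4.29 to 11.0). The Col-0 libraries differed 1.90-fold from each other, more than the *mettl4-1* libraries (1.21-fold), and the fold ran from 5.28 to 10.0 when any 1 library was left out.

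Positions 336 to 363 of AT3G05955 are the reverse complement of the last 28 bases of a threonine tRNA gene, AT2G34950, which is 74 bases long. The stretch occurs in 5 tRNA genes. Both sequences are given because the match is the one recognizable feature of this transcript, and capitals mark the shared bases, on opposite strands:
AT3G05955 around the match: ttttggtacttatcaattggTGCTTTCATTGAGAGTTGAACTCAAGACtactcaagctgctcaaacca
tRNA-Thr gene AT2G34950: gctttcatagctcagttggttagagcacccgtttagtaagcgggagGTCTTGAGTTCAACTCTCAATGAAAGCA
The 3 bases before the match, tgg, are the complement of the CCA tail that is added to tRNAs. Retrotransposons with long terminal repeats start copying their RNA from a tRNA whose tail pairs with such a stretch. Whether AT3G05955 derives from a retrotransposon was not tested. The gene overlapped no other annotated gene, and its best match elsewhere in the genome had 82.5% identity over 371 bases.

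AT5G26270 was the best covered of the 17 genes outside the ribosomal DNA. It encodes an uncharacterized protein from 3 exons (chromosome 5, 9206375 to 9208136, plus strand), and none of its exon sequence was overlapped by another gene or matched elsewhere at 95% identity or more. Its counts were 505 and 592 in *mettl4-1*, against 225 and 251 in Col-0. At 9.99 and 11.8 CPM in *mettl4-1* and 4.14 and 3.83 CPM in Col-0, the replicates of each genotype lay within 1.18-fold of each other. The fold of the means was 2.73 (counting interval 2.46 to 3.06), and 2.51 to 2.95 when any 1 library was left out.

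A pair of non-coding RNAs, AT3G06325 and AT3G06355, belongs to a ribosomal DNA unit on chromosome 3. They lie on either side of the 18S ribosomal RNA gene AT3G41768, with their starts 3017 bases apart. Ribosomal DNA is transcribed by RNA polymerase I as 1 long precursor, from which the 18S, 5.8S and 25S RNAs of the ribosome are cut, and the pieces between them are discarded. AT3G06355 (14199575 to 14200076) spans the annotated 5.8S RNA, AT3G41979, which is itself listed with 0 counts in all libraries. The stretch around the 5.8S RNA is printed to show what this gene contains, with the 5.8S RNA in capitals and the transcribed spacers in lower case:
AT3G06355, 14199733 to 14199936: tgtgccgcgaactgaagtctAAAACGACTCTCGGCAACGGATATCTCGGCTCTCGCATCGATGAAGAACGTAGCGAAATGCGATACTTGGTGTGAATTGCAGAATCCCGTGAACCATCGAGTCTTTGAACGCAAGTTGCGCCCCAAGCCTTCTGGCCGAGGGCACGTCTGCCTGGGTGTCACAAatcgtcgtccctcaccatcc
AT3G06325 (14196558 to 14196865) lies upstream of the 18S gene and overlaps the annotated precursor of the microRNA MIR5642a by 92 bases. AT3G06355 matched another place in the genome at 99.4% over 501 bases, and AT3G06325 did so at 98.1% over its 308 bases. Reads that cover none of the differing bases cannot be given to 1 unit.

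AT3G06355 had the highest level of the set, with 12898 and 5026 counts in *mettl4-1*, against 3171 and 3263 counts in Col-0. AT3G06325 had 355 and 120 counts in *mettl4-1*, against 56 and 58 counts in Col-0. In both genes the *mettl4-1* libraries were further from each other than the lower of them was from Col-0. Replicate 1 of *mettl4-1* exceeded replicate 2 by 2.95-fold in AT3G06325 and 2.56-fold in AT3G06355, and the 18S RNA did so by 2.94-fold. Relative to the mean of Col-0, replicate 2 alone was 2.49-fold higher for AT3G06325, 1.85-fold for AT3G06355 and 2.91-fold for the 18S RNA. With replicate 1 left out, the fold of AT3G06325 was 2.49 and that of AT3G06355 was 1.85, against 4.91 and 3.28 with all libraries. The 18S RNA had 1877182 and 635236 counts in *mettl4-1*, against 269811 and 243298 in Col-0. Libraries made by poly(A) selection hold ribosomal RNA as a remainder, and the part of that remainder in the difference of these genes was not tested.

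The other 15 genes did not share this split. Their ratio of replicate 1 to replicate 2 of *mettl4-1* ran from 0.789 to 1.21, and 9 of the 15 were higher in replicate 2. Without the pair from the ribosomal DNA, the median log2 fold of the means was 0.87, against 0.91 for all 17, values that the choice of the genes keeps above the limit.

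**Figure D4:**
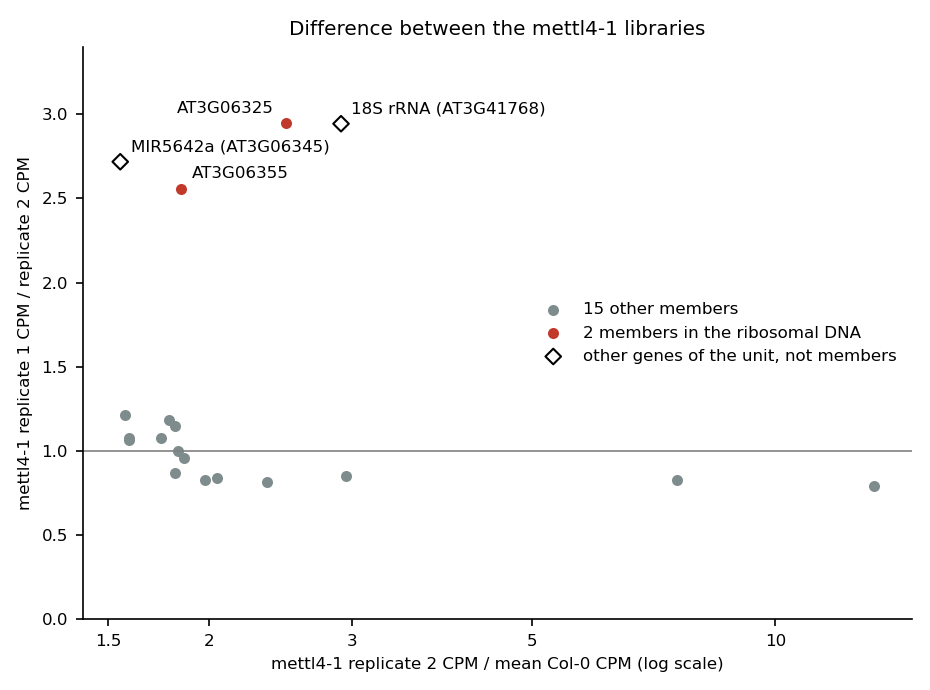
Ratio of *mettl4-1* replicate 1 to replicate 2 (vertical axis) against the ratio of replicate 2 to the mean of Col-0 (log axis) for the 17 genes, with the 18S RNA and MIR5642a of the same unit as open diamonds. The ribosomal DNA genes lie at 2.95 and 2.56 on the vertical axis beside the 18S RNA at 2.94, and the other 15 lie between 0.789 and 1.21.

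The remaining 12 genes had gaps between 1.53 and 1.74 and were mostly near the count minimum. *MIF3* (AT1G18835) encodes a mini zinc finger protein, a short relative of the zinc finger homeodomain factors that lacks their DNA-binding homeodomain, and had 26 and 24 counts in *mettl4-1*, against 14 and 19 counts in Col-0. AT1G64253, with the C-terminal domain of the chromatin protein DEK, had 50 and 52 counts in *mettl4-1*, against 33 and 33 counts in Col-0. It shares 69.2% of its exon bases with a pseudogene on the same strand, AT1G64250, for which no counts are listed. That the groups do not overlap was fixed by the choice of the genes, and the counting intervals of the fold were wide, 1.14 to 2.89 for *MIF3* and 1.33 to 2.54 for AT1G64253.

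By annotation AT1G09650 is an F-box gene and AT3G49970 a gene of the NPH3 family, which are families tied to ubiquitin ligases. F-box proteins choose the substrates of SCF ubiquitin ligases, and NPH3, which acts in phototropism, is an adaptor of CUL3 ligases. AT1G09650 had 27 and 33 counts in *mettl4-1*, against 17 and 16 counts in Col-0. AT3G49970 had 29 and 35 counts in *mettl4-1*, against 20 and 22 counts in Col-0. The gap was 1.71 for AT1G09650 and 1.56 for AT3G49970, at depths where the counting intervals of the fold, 1.39 to 3.41 and 1.21 to 2.74, were again wide.

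*CYP706A3* (AT5G44620), a cytochrome P450 that oxidizes terpenes in flowers, was among the better covered genes, with 116 and 133 counts in *mettl4-1*, against 81 and 93 counts in Col-0. Its fold of the means was 1.70 (counting interval 1.40 to 2.08). The neighbouring gene AT5G44630, a terpene synthase of flowers, had 12 and 16 counts in *mettl4-1*, against 19 and 8 counts in Col-0, and these groups overlapped. *DIC3* (AT5G09470), a mitochondrial carrier of dicarboxylates such as malate, had 26 and 24 counts in *mettl4-1*, against 16 and 20 counts in Col-0. Its counting interval reached down to 1.05, the lowest of the set. AT4G27850, of a glycine-rich protein family, had 45 and 37 counts in *mettl4-1*, against 25 and 31 counts in Col-0.

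By their annotated products, 224 other genes belong to the families of *MIF3*, *DIC3*, *CYP706A3*, AT3G49970, AT2G35555, AT1G09650, AT1G64253 and AT4G27850, a grouping made after their values had been seen. Of these relatives 82 could be tested, and edgeR called 1 higher and 1 lower in *mettl4-1*, both glycine-rich, beside 0.937% and 0.683% of all genes. The one called higher, AT5G35660, had 19 and 31 counts in *mettl4-1*, against 8 and 10 counts in Col-0. The one called lower, AT2G05580, had 4 and 1 counts in *mettl4-1*, against 50 and 56 counts in Col-0. *MIF1* (AT1G74660), the more abundant relative of *MIF3*, was at 4.97 and 5.21 CPM in *mettl4-1* and 5.03 and 4.91 CPM in Col-0, and the 6 tested *CYP706A* relatives had log2 fold changes of -0.17 to 0.09. Below 1.5-fold but at an edgeR adjusted p under 0.05 were *CYP706A1* (-0.17, SE 0.03, adjusted p = 0.0176) and *CYP706A5* (-0.14, SE 0.03, adjusted p = 0.0268). So was the glycine-rich AT2G05510, in the other direction (0.38, SE 0.04, edgeR adjusted p = 0.00088).

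The remaining genes lie opposite other genes. Of the 17, 12 (70.6%) overlapped another annotated gene, against 32.3% of all nuclear genes past the count minimum, and 10 (58.8%) overlapped one on the opposite strand, against 28.1%. Those genes had a higher level, with a median of 16.6 CPM in *mettl4-1* among genes of 20 or more counts in every library, against 0.813 CPM for the 17. Among the 4264 nuclear genes whose lower *mettl4-1* count was 20 to below 200, which include 15 of the 17, 30.9% overlapped another gene and 26.6% one on the opposite strand, against 10 and 9 of the 15. In 7 of the 17, other genes covered most of the exon sequence. AT3G17655, an uncharacterized gene, lies for 84.7% of its exons opposite *YSL5* (AT3G17650), which belongs to a family of transporters of metal chelates. AT3G17655 had 38 and 33 counts in *mettl4-1*, against 21 and 22 counts in Col-0. *YSL5* had 3305 and 3370 counts in *mettl4-1*, against 3802 and 4368 counts in the deeper Col-0 libraries (edgeR log2 fold change -0.04, SE 0.03). AT1G49150 lies for 99.7% of its exon opposite AT1G49140, a gene for a subunit of mitochondrial complex I. AT1G49150 had 25 and 21 counts in *mettl4-1*, against 13 and 15 counts in Col-0. AT1G49140 had 1377 and 1566 counts in *mettl4-1*, against 1604 and 2020 counts in Col-0 (edgeR log2 fold change -0.05, SE 0.05). The library kit keeps the strand, and the sources used here do not give the counting setting. Fully opposite genes could hold unlike counts, as in AT2G13555 with 130 and 122 counts in *mettl4-1*, against 17 and 14 counts of its partner AT2G13550. From counts alone, a small share of reads from an abundant partner cannot be told apart from reads of AT3G17655 or AT1G49150. Its part in the difference was not tested.

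AT2G35555, annotated as a serpin, which is an inhibitor of proteases, lies for 69.2% of its exons within a pseudogene and for 30.8% opposite *BPC7*, a DNA-binding protein gene. It had 21 and 25 counts in *mettl4-1*, against 14 and 15 counts in Col-0. AT5G09395, a non-coding RNA opposite a UDP-glycosyltransferase gene, had 28 and 28 counts in *mettl4-1*, against 14 and 23 counts in Col-0. Its Col-0 libraries were 1.36-fold apart, a spread near the gap of 1.58. Outside the ribosomal DNA and the duplicated block, 6 of the overlapping genes could be tested, and edgeR, DESeq2 and limma-voom each called 0 of them in either direction (edgeR log2 fold changes of -0.11 to 0.75, 1 with an unadjusted p under 0.05, smallest adjusted p = 0.281).

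The gene just inside the limit, AT2G13555, also has the shortest exon sequence of the set. Its 3 exons of 58, 31 and 31 bases lie wholly opposite AT2G13550, another uncharacterized gene. The 120 bases of the joined exons (chromosome 2, 5649224 to 5649727, plus strand, introns left out) are shown since they are all that a read can be counted on, with exons 1 and 3 in capitals and exon 2 in lower case:
AT2G13555 joined exons: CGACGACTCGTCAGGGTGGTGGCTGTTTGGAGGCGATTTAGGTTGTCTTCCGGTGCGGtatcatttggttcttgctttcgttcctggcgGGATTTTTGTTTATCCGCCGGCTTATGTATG
AT2G13555 had 130 and 122 counts in *mettl4-1*, against 86 and 96 counts in Col-0, with a fold of the means of 1.64 (counting interval 1.35 to 2.00). Per kilobase of exon it was the second highest of the set, at 20.8 CPM per kb in *mettl4-1* and 12.7 CPM per kb in Col-0, after AT3G06355 at 354 and 108. This rank rests on a division by only 120 bases, since AT2G13555 was at 2.50 CPM in *mettl4-1* and 1.52 CPM in Col-0. Its partner AT2G13550 had 17 and 14 counts in *mettl4-1*, against 7 and 15 counts in Col-0, and the groups overlapped.

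The edge of the set is not sharp. *CYP706A3*, AT4G27850 and AT2G13555 entered with gaps of 1.54, 1.55 and 1.53. Just outside were *HSP17.4* (AT3G46230), a small heat shock protein gene, with a gap of 1.4997, and *PI* (AT5G20240), the floral organ gene *PISTILLATA*, with 1.47. *HSP23.6-MITO* (AT4G25200), a mitochondrial small heat shock protein gene, followed with 1388 and 1419 counts in *mettl4-1*, against 989 and 1223 counts in Col-0, also a gap of 1.47 and at a far greater depth than most of the 17.

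The 17 genes are spread over the genome, with 4 on chromosome 1, 2 on chromosome 2, 5 on chromosome 3, 1 on chromosome 4 and 5 on chromosome 5. Apart from the ribosomal DNA pair, the nearest were 2579136 bases apart, with all distances measured between starts. *MIF3* is the closest to *METTL4*, at 0.189 Mb, and the other 3 on chromosome 1 lie 3.56 to 17.2 Mb from it. The genes flanking the 17 were compared between the genotypes, taking the 2 nearest tested genes on each side. Outside the duplicated block and the ribosomal DNA, edgeR called 0 of 56 flanking genes higher and 0 lower, at background shares of 0.937% and 0.683%, and their log2 fold changes ran from -0.24 to 0.75 with a median of 0.01. DESeq2 and limma-voom also called 0 of them, and 4 had an unadjusted p under 0.05 in edgeR. At an adjusted p under 0.05 but below 1.5-fold were 2 of the 56, *ABH1* near AT2G13555 with a log2 fold change of 0.25 (SE 0.03, edgeR adjusted p = 0.00189) and AT3G17640 near AT3G17655 with -0.24 (SE 0.05, edgeR adjusted p = 0.0303).

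**Figure D5:**
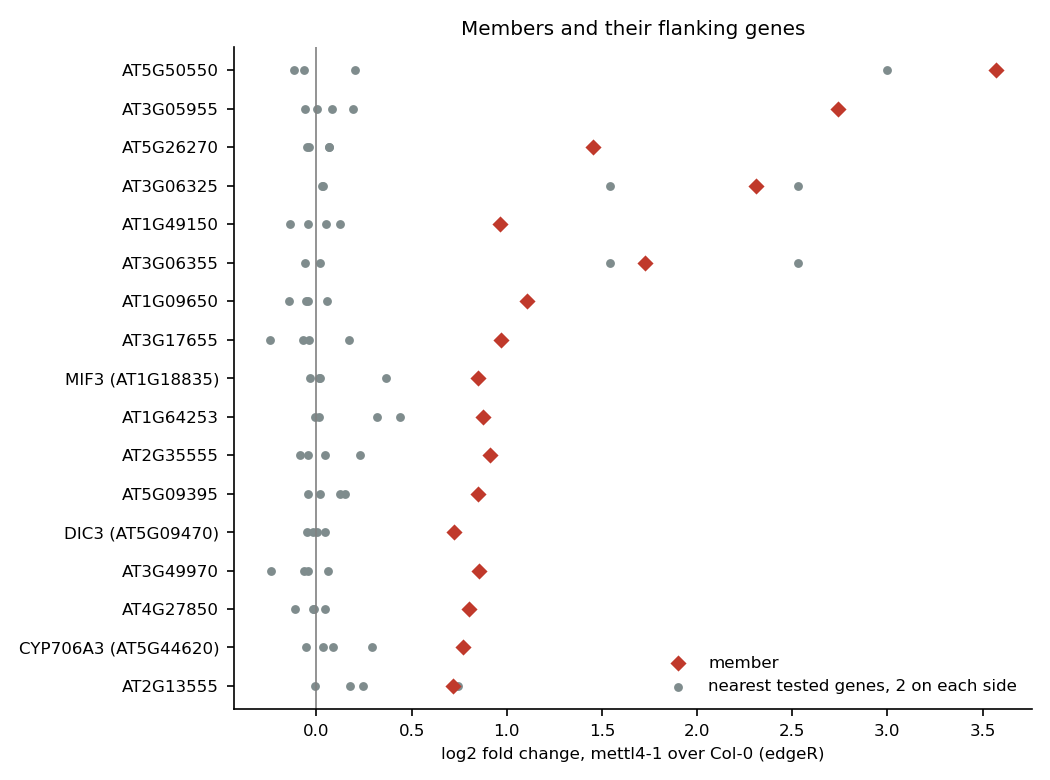
edgeR log2 fold change, *mettl4-1* over Col-0, of each of the 17 genes (red diamonds) and of the 2 nearest tested genes on each side (grey points). Flanking genes of the 14 genes outside the duplicated block and the ribosomal DNA lie between -0.24 and 0.75, while the 18S RNA reaches 2.53 and AT5G50530 of the block lies further right still.

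The annotation of the 15 genes with a lower *mettl4-1* count below 200 was set beside that of the 4264 nuclear genes in the same range. Long non-coding RNAs made up 3 of the 15, against 4.08% of the 4264, and 3 of the 15 had an uncharacterized product, against 10.8%. A single exon was annotated for 5 of the 15, against 31.2%, and the median exon length was 1305 bases, against 1404. GC content had a median of 42.9% in the 17 and 41.1% in all nuclear genes past the count minimum. These shares describe the set and were not tested.

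None of the 17 was in the 14 gene lists written for responses and tissues that a seedling sample can show. The lists hold 242 genes, beside 32833 listed in all, so this absence says little. Of the 220 list genes tested, edgeR called 4 higher (1.82%, against 0.937% of all genes) and 3 lower. The higher ones were *HSP17.4* and *HSP23.6-MITO* of 18 heat shock genes tested, *BGLU30* of 15 sulfur genes, a beta-glucosidase gene that rises when sulfur is short, and *PI* of 9 flower organ genes. *BGLU30* (AT3G60140) had 168 and 148 counts in *mettl4-1*, against 109 and 118 counts in Col-0. The lower ones were *AOP3* of 20 glucosinolate genes, *AOX1D* of 19 oxidative and xenobiotic stress genes and *WOX5* of 18 root genes. The lists of jasmonate, iron, phosphate, nitrate, hypoxia, auxin, senescence and pollen genes held 0 calls among 121 genes tested, by edgeR, DESeq2 or limma-voom alike, with 39 at an unadjusted p under 0.05 in edgeR. A call needs a 1.5-fold change, and smaller differences occurred in both directions. Examples are *VSP2* (log2 fold change 0.39, SE 0.04, edgeR adjusted p = 0.000576) and *IRT1* (-0.245, SE 0.05, edgeR adjusted p = 0.0189). List medians of the log2 fold change ran from -0.33 (pollen, 2 genes tested) to 0.39 (flower organs), where the median of all genes tested was 0.0016.

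Among the lists that stand for other tissues, the summed level of 14 flower organ genes was 20.2 and 22.7 CPM in *mettl4-1* and 18.9 and 19.8 CPM in Col-0, and none was at 0 in all libraries. The 18 root genes summed to 193 and 201 CPM in *mettl4-1* and 201 and 200 CPM in Col-0. The 8 pollen genes summed to 1.11 and 0.775 CPM in *mettl4-1* and 1.05 and 1.22 CPM in Col-0, with 2 of them at 0 in every library. The flower organ sum was higher in both *mettl4-1* libraries, alongside *CYP706A3*, and its part in that difference was not tested. Of the 14 genes 9 could be tested. *SEP4* had the most counts of these, 702 and 812 in *mettl4-1* against 747 and 962 in Col-0 (edgeR log2 fold change 0.08, SE 0.07). *SEP3* and *SHP1* had log2 fold changes of -0.20 and -0.36, and the other tested genes had positive ones. In bulk seedlings, more cells of a type and more RNA per cell cannot be told apart.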

How the data were processed

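The deposited values are counts of reads per gene for 4 libraries (*mettl4-1* and Col-0, 2 each). The authors built strand-specific mRNA libraries, trimmed the reads with Cutadapt 3.5, aligned them to TAIR10 (HISAT2 2.2.1), filtered the alignments on mapping quality (SAMtools 1.13) and counted reads per gene (featureCounts 2.0.1). Which annotation release was used, and how strand, overlap and multi-mapping reads were handled in counting, is not given in the sources used here. These settings bear on the duplicated and overlapping genes. The deposited table of *mettl4-1* replicate 2 is named for another allele and its column repeats the name of replicate 1, and the sample labels were followed. Labels disagree on the dark period, which reads 8 to 11 h across the libraries in one field and 8 h in another.

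CPM are counts divided by the library's sum over nuclear genes, times 1000000. Genes were tested with edgeR 4.0.16 in R 4.3.3 (TMM, filterByExpr with a minimum of 10 counts, quasi-likelihood test, genotype as the only term), with limma 3.58.1 and DESeq2 1.42.0 as alternatives, and p-values were adjusted over all genes tested. Fold changes set *mettl4-1* over Col-0. The edgeR step was tested on simulated counts. Positions, overlaps and sequences were taken from RefSeq (TAIR10.1), in which each of the 32548 nuclear genes was found, and matches elsewhere from BLAST+ at 95% identity. The named genes are *METTL4*, the genes with the largest gaps and highest levels, which together cover all 17, and those at the limit. *ABH1*, AT3G17640, *CYP706A1*, *CYP706A5*, AT2G05510, the called relatives and the block genes were named after their values were seen. The 17 genes and the lists were chosen with earlier results of these data known. Alternatives were other scalings, filters and tools, other limits, a replicate block and the omission of each library.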

Additional observations from a re-analysis of the deposited data

How the results depend on the processing

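The 17 genes were found again under each of the 3 other scalings (17 or 18 found, the 17 shared). Lowering the count minimum to 10 gave 37 genes, raising it to 50 gave 8 and a gap of 2 times gave 4. Leaving out any 1 library gave 77 to 100, so the number rests on the demand that both libraries of each genotype agree. The median log2 fold of the means was 0.91, 1.45 among genes with 100 or more counts in both *mettl4-1* libraries, and 0.88 to 0.99 without any 1 library. Without the ribosomal DNA pair it was 0.87, and it was 0.87 too when AT5G50550 was left out together with that pair, both chosen after seeing the data. The choice of the genes keeps every such fold at 1.5 or more, so it says nothing of their stability.

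Among all genes, 203 were called higher and 148 lower. DESeq2 called 123 higher, removing organelle genes before TMM gave 128, and demanding 10 counts in every library gave 76 lower. Without any 1 library, 186 to 260 were called higher and 147 to 184 lower. Of the 17 genes DESeq2 called 8, with no adjusted p for 16 of them, and 11 to 12 were called without any 1 library, the fewest without Col-0 replicate 2. In the lists DESeq2 called 2 higher and 1 lower, and without any 1 library 4 to 7 were higher and 1 to 3 lower. The log2 fold change of *METTL4* stayed between -3.19 and -2.82 without any 1 library. The causes were not tested. No called value reversed.

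Differences between replicates 1 and 2 were not correlated between the genotypes (r = 0.0042 across 21673 genes, which are not independent replicates). This value would not show a batch shared by same-numbered libraries that touched only some genes. With a replicate block 191 genes were called higher and 138 lower, and 16 of the 17.

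Depth is a limit, since 9 of the 17 had a library under 50 counts in *mettl4-1*. With 2 libraries per genotype an exact permutation test of 1 gene can reach no p below 0.333 (two-sided).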
